A study of Mus musculus with 9 samples.

Results

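Binding of EWS/ATF1 at the 4 Hox clusters was compared between the murine clear-cell sarcoma line G1297 and sarcoma-iPSC MEFs. A peak was counted in a cluster when it touched, by at least 1 bp, a window that holds the cluster with its flanks in genome build mm9. The windows ran from 52050000 to 52270000 on chromosome 6 for Hoxa, from 96000000 to 96280000 on chromosome 11 for Hoxb, from 102700000 to 102920000 on chromosome 15 for Hoxc, and from 74450000 to 74660000 on chromosome 2 for Hoxd. They were set for 38 Hox genes, of which 10 belong to Hoxa, 10 to Hoxb, 9 to Hoxc and 9 to Hoxd. Of the 35220 peaks in the deposited lists of both cell types, 23 lay in these windows. The G1297 list contributed 1 of its 8090 peaks and the MEF list 22 of its 27130.

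The sarcoma cells and the MEFs carry the same doxycycline (Dox)-inducible, hemagglutinin (HA)-tagged EWS/ATF1, the fusion oncogene of clear-cell sarcoma. G1297 was established from EWS/ATF1-inducible mice, and the MEFs were grown from chimeric embryos made with the sarcoma iPSC line #3, which had been reprogrammed from sarcoma cells. The MEFs came from embryos without head and viscera, were enriched by puromycin selection for cells of iPSC origin, and derive from a single iPSC line. Both were exposed to Dox at 0.2 µg/ml for 12 h and subjected to chromatin immunoprecipitation-sequencing (ChIP-Seq) with an HA antibody. There were 2 ChIP libraries labelled G1297 and 1 labelled sarcoma MEF. The Dox history of the cells differed. The paper reports that G1297 proliferates only with Dox, and its expression time course began with G1297 cells kept off Dox. The sarcoma iPSCs had been established without EWS/ATF1 expression. One question of the study is where EWS/ATF1 binds in each cell type after induction. The authors deposited a single list of peaks per cell type, holding positions and a MACS score, which is the log10 of the P value of a peak multiplied by -10. A higher score stands for a smaller P value. No value per replicate and no read count can be had from these lists, so nothing below could be tested against a spread between samples, and read depth is unknown. A region without a peak is one that did not pass the P value threshold of 1e-09. Since the lists hold positions only, the identity of the cells could not be checked against marker genes.

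Hox genes encode homeodomain transcription factors that give cells along the body axis and in the limbs their positional identity. In mammals they sit in 4 clusters, and within each the order of the genes follows the order in which they are used from head to tail. Fibroblasts are known to keep a Hox expression pattern that reflects the body site they came from. Silent Hox genes are classical targets of Polycomb repression. Low-numbered genes such as Hoxa2 and Hoxb1 pattern the hindbrain and pharyngeal arches, Hoxa5 acts in the lung and Hoxc8 in the trunk, and high-numbered genes such as Hoxa11, Hoxa13 and Hoxd13 shape the limb and the urogenital tract. Along chromosome 6 the Hoxa genes run from Hoxa2 at the lower to Hoxa13 at the higher coordinates in the RefSeq annotation of GRCm38. In the other clusters the order is turned round, from Hoxb13 to Hoxb1, from Hoxc13 to Hoxc4 and from Hoxd13 to Hoxd1.

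EWS/ATF1 reaches DNA through the DNA-binding domain of ATF1, which recognises the cyclic AMP response element (CRE). The sequences shown here are Hox promoter stretches that hold a short form of this element, since it is the element that this domain is known to bind. They were taken from RefSeq promoters of build GRCm38.p6, each covering 250 bases before and 50 bases from the start site. The peaks are in mm9, so no peak was tied to a promoter, to a single Hox gene or to its sequence. Promoters were matched for 22 of the 38 genes. Hoxa4, Hoxb2, Hoxb3, Hoxb5, Hoxb6, Hoxb7, Hoxb9, Hoxb13, Hoxc5, Hoxc6, Hoxc8, Hoxc9, Hoxc10, Hoxc11, Hoxc12 and Hoxc13 were not matched. The full CRE palindrome, TGACGTCA, was found in 0 of the 22 genes, against 2.03% of all 27025 genes with a promoter in the table. The shorter motif TGACG, searched on both strands as TGACG or CGTCA and contained in the palindrome, was found in 7 of the 22 (31.8%), against 23.0% of all genes. The 7 were Hoxa5, Hoxa6, Hoxa11, Hoxb1, Hoxd3, Hoxd8 and Hoxd11. The motif was present in 3 of 9 matched Hoxa genes, 1 of 3 Hoxb genes, 0 of 1 Hoxc genes and 3 of 9 Hoxd genes. By paralog number it was present in 2 of 5 genes numbered 1 to 3, in 3 of 8 numbered 4 to 8 and in 2 of 9 numbered 9 to 13. The promoters held 10 such motifs, all upstream of the start site. Stretches without the short motif were not compared with the palindrome. The 5 motifs that match the 8-letter palindrome in at least 6 letters when aligned with it follow, on the strand of the gene, with the motif in capitals and 10 bases on each side.
Hoxa5, chr6:52204790-52204814, minus strand: gatcggcagcTGACGgcctcacaat
Hoxa11, chr6:52245813-52245837, minus strand: tagatttccaCGTCAgcttacgtct
Hoxd3, chr2:74711837-74711861, plus strand: tatttgcggtCGTCAttggctgcgg
Hoxd11, chr2:74682214-74682238, plus strand: ctctccatggCGTCAcgtgacataa
Hoxd11, chr2:74682260-74682284, plus strand: atgaattgcaCGTCAgcgcccggtg
The first Hoxd11 motif matched 7 of the 8 letters and began at base -99 from the start site, and the other began at base -53. The motif nearest to a start site was the one shown for Hoxa11, at bases -17 to -13. In Hoxa5 and Hoxd3 the motif began at bases -217 and -146, respectively. Hoxa6, Hoxb1 and Hoxd8 held motifs with 5 matching letters, and so did Hoxa11 in a further motif at bases -202 to -198. A match describes these letters only and shows no binding.

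By number, the peaks of the sarcoma-iPSC MEFs were concentrated in Hoxa, which held 15 of the 22 MEF peaks (68.2%). Hoxb held 4, Hoxc 2 and Hoxd 1. In G1297, Hoxa held 1 peak and the other clusters 0. The density of MEF peaks was 68.2 per Mb in the Hoxa window, against 10.3 per Mb over the whole MEF list and 9.84 per Mb on the rest of chromosome 6. It was thus 6.63 times the density of the list in Hoxa, 1.39 times in Hoxb, 0.885 times in Hoxc and 0.463 times in Hoxd. At the density of the whole list, 2.26 MEF peaks would fall in a window as long as that of Hoxa or Hoxc, 2.88 in Hoxb and 2.16 in Hoxd. The G1297 density in the Hoxa window, which rests on 1 peak, was 4.55 per Mb. It was 3.06 per Mb over the whole G1297 list and 4.22 per Mb on the rest of chromosome 6. At the density of the G1297 list, 0.674 peaks would fall in the Hoxa or Hoxc window, 0.858 in Hoxb and 0.644 in Hoxd. A window without a G1297 peak is therefore common, as 70.0% of all 220-kb stretches, 65.2% of 280-kb stretches and 70.7% of 210-kb stretches of the genome held 0 G1297 peaks.

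**Figure D1:**
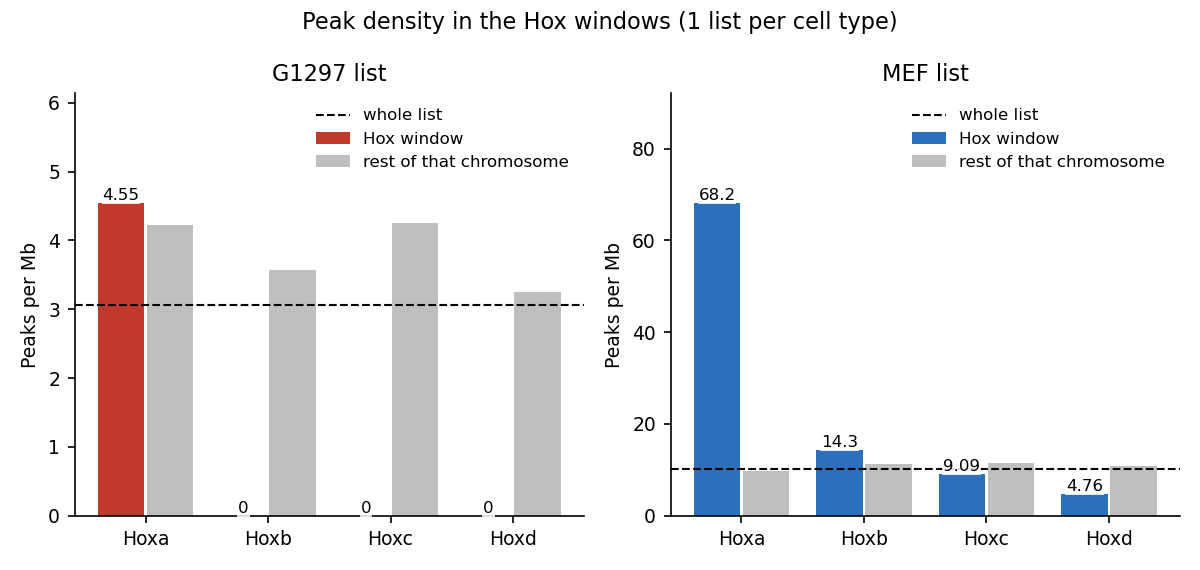
Peaks per Mb in each Hox window (coloured bars), on the rest of the chromosome that carries it (grey bars) and over the whole list (dashed line), for the G1297 list (left) and the MEF list (right), with different axes. Each bar is a count from 1 list, so it has no error bar. The MEF density in Hoxa, 68.2 per Mb, stands above the other windows and above the dashed line, while only Hoxa has a G1297 peak.

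In Hoxa, the MEF peaks formed a long run rather than a single site. The first peak began 59.1 kb above the low-coordinate end of the window, and 14 of the 15 peaks lay in a span of 95.1 kb. The first 11 of them, from 52109094 to 52154743 on chromosome 6 (mm9), were neighbours with gaps of at most 12.5 kb, the default stitching distance of the super-enhancer tool ROSE. This run was 45.7 kb long, peaks covered 10.6 kb of it, and 0 of its 11 peaks overlapped a G1297 peak, against 18.5% of all MEF peaks, a difference that was not tested. Among the 2137 runs of at least 3 peaks in the whole MEF list, the median run had 3 peaks and the longest 12. Only 6 runs, the Hoxa run included, had 11 or more, and in 2 of these 6, the Hoxa run included, no peak overlapped a G1297 peak. With gaps of at most 5000 bp, the longest Hoxa run fell to 4 peaks. These runs count peaks called separately, and neighbouring peaks are not independent.

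Scores were uneven along the Hoxa run. The run opened with a peak from 52109094 to 52110208, 1115 bp wide, and its score of 738.6 exceeded 74.0% of the MEF list. Its neighbour, 215 bp away, had a score of 311.9. The next 5 peaks were lower, with scores from 120.0 to 211.5. Scores then rose again in a group of 4 peaks within 8.44 kb, from 52146309 to 52154743, with scores from 461.5 to 834.7. Within it, a peak with a score of 643.5 followed its neighbour at a distance of 44 bp. The highest of these lay from 52146309 to 52147474, was 1166 bp wide and ranked above 76.7% of the MEF list. Above the run, 3 scattered peaks had scores from 92.69 to 181.7, the lowest of them close to the score of 90 that the P value threshold corresponds to. The run lay in the part of the window with lower coordinates, which is the side towards Hoxa2 in the order of the genes. Which Hoxa genes it spans cannot be said, because no annotation of the peaks' build was used.

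**Figure D2:**
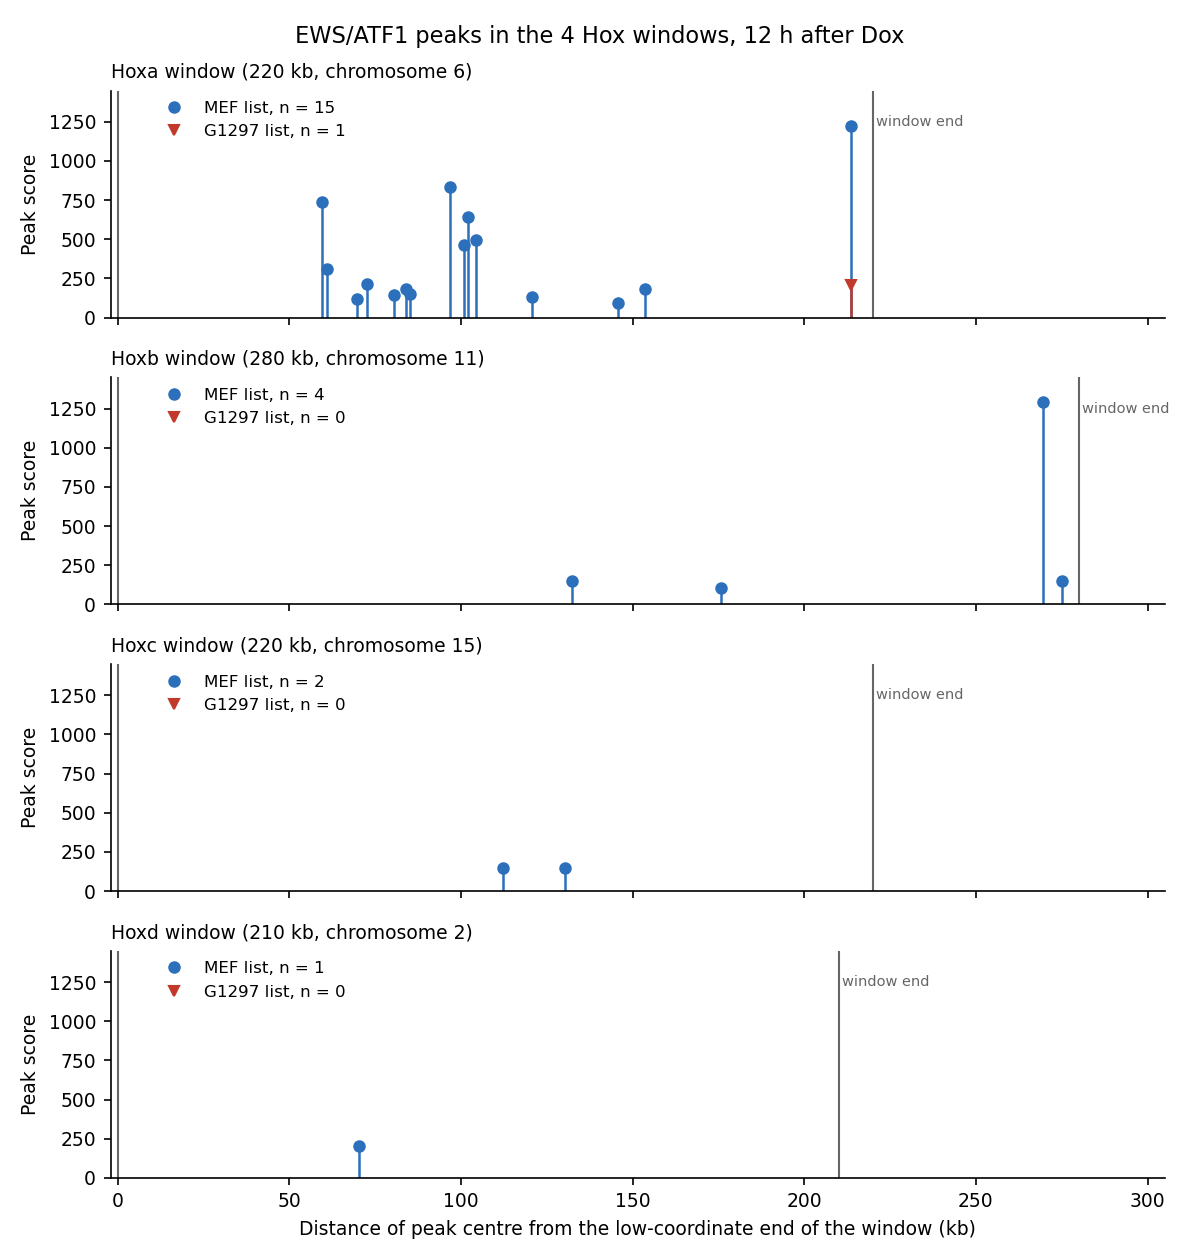
Score of each peak against the distance of its centre from the low-coordinate end of its window (kb), for the 15, 4, 2 and 1 MEF peaks (blue circles) and the single G1297 peak (red triangle). Scores are comparable only within a list. In Hoxa the MEF peaks gather between 59.7 and 104.3 kb, and the only G1297 peak falls on the highest Hoxa MEF peak, at the far end of the window.

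The only site called in both cell types lay apart from this run, 58.9 kb above the nearest other MEF peak of the window. In the MEFs it was the highest-scoring Hoxa peak, from 52263057 to 52264112, 1056 bp wide, and its score of 1220.3 exceeded 84.2% of the MEF list. In G1297 the peak lay from 52263183 to 52263873, 691 bp wide, and its score of 208.6 exceeded 41.1% of the G1297 list. The G1297 peak lay wholly inside the MEF peak and covered 65.4% of it, and their centres were 56.5 bp apart. The lists differ in length, and counted from the top the peak ranked 4288th in the MEFs and 4768th in G1297. Among the top 8090 MEF peaks by score, a list as long as that of G1297, it exceeded 47.0%, so that its rank was similar in lists of equal length. The score of the G1297 peak was below the median of G1297 peaks that overlap a MEF peak, 344.2, and that of the MEF peak was above the corresponding MEF median, 753.9. This site lies 5.89 kb from the upper end of the window, on the side towards Hoxa13. The window includes flanks, and whether the site lies among the Hoxa genes or in the flank was not determined.

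Apart from this site, no MEF peak of the Hox windows had a G1297 counterpart. An overlap with a G1297 peak was found for 1 of the 22 MEF peaks (4.55%), against 18.5% of the whole MEF list. In the other direction, the only G1297 peak overlapped a MEF peak, as did 62.8% of the G1297 list. The 14 other Hoxa peaks lay between 59.0 and 153.0 kb from the nearest G1297 peak, with a median of 121.6 kb, which was the shared site in every case. For MEF peaks without an overlap over the whole list, the median distance was 108.5 kb. Among the MEF peaks with a score of at least 500, 5 lay in the Hox windows and 1 of them overlapped a G1297 peak, against 31.9% of all MEF peaks of that score. These shares rest on few peaks and were not tested.

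Stretches of the genome as dense in MEF peaks as Hoxa were rare. When the genome was divided into 12011 stretches of 220 kb, 49 of them (0.408%) held 15 or more MEF peaks, and the densest held 21. These 49 stretches held a median of 5 G1297 peaks, from 0 to 17, against 1 in Hoxa. At most 1 G1297 peak was found in 7 of the 49 (14.3%), and 0 in 2 of them. The 797 MEF peaks in these stretches included 27.5% with an overlapping G1297 peak, compared with 1 of 15 (6.67%) in Hoxa. The other windows were ordinary by this measure. At least 4 MEF peaks, as in Hoxb, were found in 32.6% of 280-kb stretches, at least 2, as in Hoxc, in 45.7% of 220-kb stretches, and at least 1, as in Hoxd, in 60.5% of 210-kb stretches. The stretches are consecutive and fixed in place, whereas the windows are placed on the clusters, so the shares describe the lists and are not a test.

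**Figure D3:**
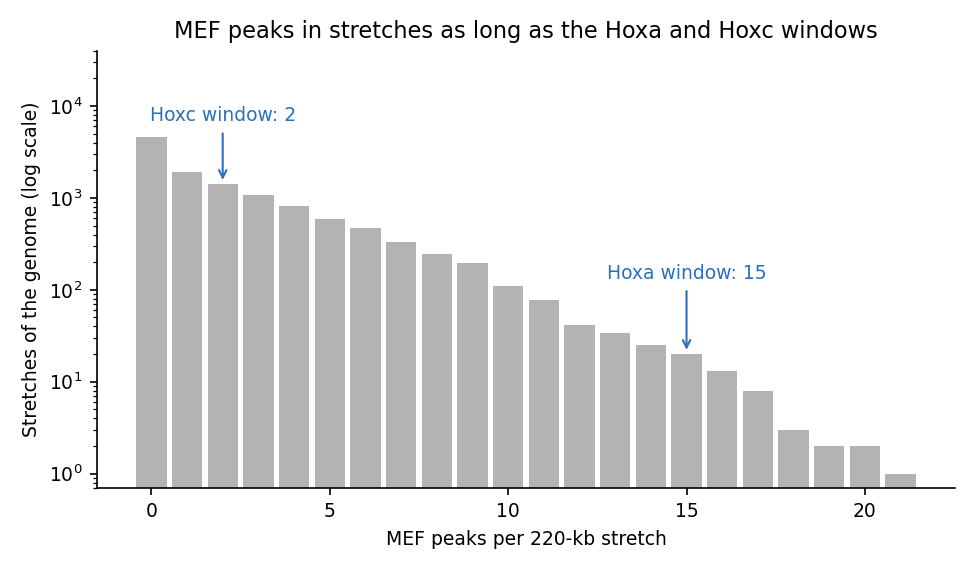
Number of 220-kb stretches of the genome (log scale) with each number of MEF peaks, for stretches as long as the Hoxa and Hoxc windows. The 15 MEF peaks of Hoxa lie in the sparse right end, reached by 49 of 12011 stretches, and the 2 of Hoxc near the left.

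In Hoxb, whose genes act in the hindbrain, trunk and blood-forming cells, the 4 MEF peaks were dispersed. The strongest had the highest score of all 22, 1293.2, above 85.2% of the MEF list, and was also the widest, at 1920 bp, from 96268704 to 96270623 on chromosome 11. A weaker peak with a score of 150.1 lay 3963 bp above it, from 96274587 to 96275405. Both lay in the last part of the window, on the side towards Hoxb1, with centres at 96.3% and 98.2% of its length. The window includes flanks, and whether these peaks lie among the Hoxb genes or in the flank was not determined. Nearer the middle of the window, the peak from 96132124 to 96132745 scored 147.4 and that from 96175610 to 96176197 scored 100.9. The nearest G1297 peaks were 529.4 to 672.1 kb away. All 4 were thus farther from a G1297 peak than any Hoxa peak was.

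Hoxc and Hoxd had few and weak peaks. Hoxc, which includes the hair and nail regulator Hoxc13 and the trunk gene Hoxc8, had MEF peaks from 102811787 to 102812579 and from 102829979 to 102830809 on chromosome 15. Their scores of 147.1 and 148.1 exceeded 21.2% and 21.5% of the MEF list. They lay 510.8 and 529.0 kb from the nearest G1297 peak, and no G1297 peak was listed above them on that chromosome. Hoxd, whose high-numbered genes Hoxd10 to Hoxd13 pattern the digits, had a single MEF peak, from 74520072 to 74520714 on chromosome 2, 643 bp wide. It had a score of 200.2, above 33.4% of the MEF list, and lay 265.4 kb from the nearest G1297 peak.

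Most Hox peaks ranked low within the MEF list. The 22 scores ran from 92.69 to 1293.2 with a median of 181.5, against 314.8 over the whole list. A score above the list's median was found in 7 of the 22 peaks, 6 of them in Hoxa and 1 in Hoxb. A score of at least 500 was found in 5 of the 22 (22.7%), 4 in Hoxa and 1 in Hoxb, against 35.8% of the whole list. The median percentile within the list was 29.6 for all 22 peaks, 35.5 in Hoxa, 21.6 in Hoxb, 21.4 in Hoxc and 33.4 in Hoxd. The peaks were also narrower, with a median width of 857.5 bp against 970 bp over the list.

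**Figure D4:**
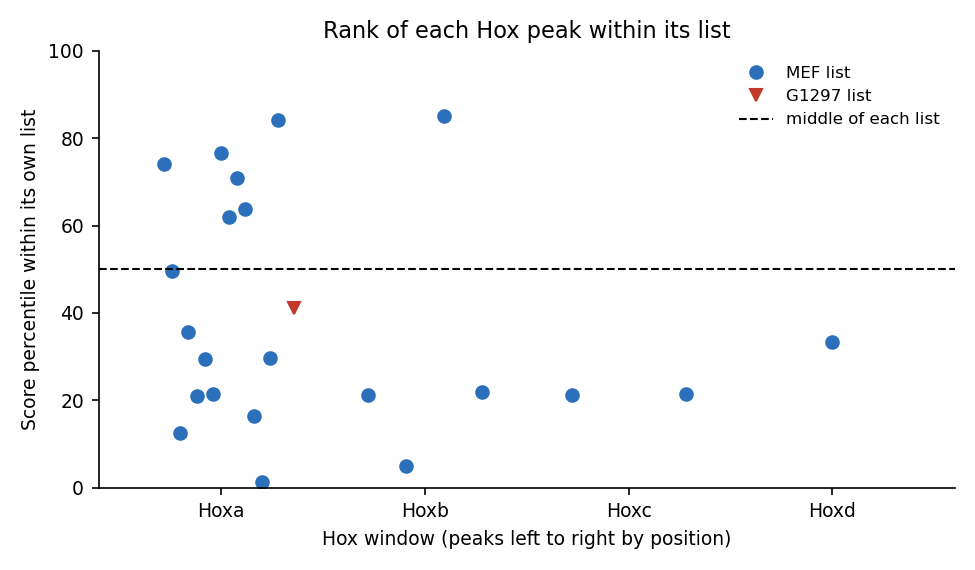
Percentile of each Hox peak's score within its own list (0 lowest, 100 highest), by window, with MEF peaks as blue circles and the G1297 peak as a red triangle. Of the MEF peaks, 7 of 22 lie above the dashed line at the middle of the list, 6 of them in Hoxa. Percentiles depend on the length of a list and are comparable only within it.

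Hoxb, Hoxd and the Hoxa window below its shared site lay in long gaps between G1297 peaks, and the last G1297 peak listed on chromosome 15 ended 399.0 kb below the Hoxc window. Below the shared Hoxa site the G1297 list had no peak for 842.9 kb, back to 51420292, and the MEF list had 19 peaks in that interval, 14 of them in the Hoxa window. The G1297 peaks on either side of Hoxb were 1558.5 kb apart, with 17 MEF peaks between them, 4 of which lay in the window. Those on either side of Hoxd were 1225.5 kb apart, with 12 MEF peaks between them and 1 in the window. Gaps at least as long made up 8.34%, 4.23% and 5.49% of the 8066 gaps in the G1297 list for Hoxa, Hoxb and Hoxd. By length, however, such gaps held 61.8%, 46.9% and 52.5% of all the sequence between G1297 peaks, so that a locus in a gap of this size is not unusual.

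The numbers of peaks are not amounts of binding, since the number of regions that pass a P value threshold depends on read depth, which is unknown. When only the top 8090 MEF peaks by score were kept, the length of the G1297 list, 5 MEF peaks remained in the Hox windows, 4 in Hoxa and 1 in Hoxb. The Hoxa density was then 5.93 times that of the shortened list. Just outside the windows, the nearest MEF peak within 100 kb of Hoxa lay 48.5 kb above it, from 52318529 to 52319609, with a score of 278.2.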

How the data were processed

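ChIP-Seq peak lists of G1297 and sarcoma-iPSC MEFs 12 h after Dox were analysed. Per the labels, the authors processed reads with FastQC and cutadapt, aligned them to mm9 with Bowtie2 2.2.0 and called peaks with MACS 1.4.2. The methods give a P value of 1e-09. The deposited values are a score per peak, -10 times log10 of its P value, without counts or replicates. Whether 1 or both G1297 libraries entered the list, and which input served as control, are not given in the sources used here. The Ebf1-KRAB and NANOG-KRAB libraries were not analysed here.

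Peaks in the windows were counted, ranked within each list (ties at the mean rank) and compared by overlap of at least 1 bp in Python 3.11.15 with pandas 2.3.3 and numpy 2.4.6. Overlap counts were checked against bedtools 2.31.1 and the steps tested on simulated data. Densities used the last listed peak end as each chromosome's length. BED starts were shifted to count from 1. No test was run, as each cell type has 1 list. Named were the 3 highest-scoring peaks per cluster and list and every overlapping pair. The other peaks, and the promoters with a short CRE motif, were named after their values were seen. Gene members, windows and lists were chosen with earlier results of these data known. Alternatives were other overlaps, scores, window limits, tie ranks, covered bases, a shorter MEF list and a shorter motif.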

Additional observations from a re-analysis of the deposited data

How the results depend on the processing

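Each value was recomputed under its alternatives, which gave 65 values. Of these, 45 stayed within 1.5 times of the original (for median percentiles, within an order-statistic interval or equal to 3 digits), and 20 moved further. The score threshold mattered most. At a score of at least 200, 10 in place of 22 MEF peaks lay in the Hox windows, 8 of them in Hoxa. At a score of at least 500, 5 MEF peaks and 0 G1297 peaks were left, with 0 overlaps in either direction, and the density over that of the list was 1.46 in place of 2.30 in the MEFs and 0 in place of 0.351 in G1297. Keeping only as many top MEF peaks as there are in G1297 left 5 in the windows. Windows shortened by 20000 bp held 0 G1297 peaks, because the shared site lies near the window's end, and 19 MEF peaks. The MEF peaks lost were the shared Hoxa site and both upper Hoxb peaks, among them the highest-scoring of all 22. Windows extended by 100000 bp held 1 G1297 peak and 23 MEF peaks. In Hoxa, the MEF density over that of the list was 4.94 to 5.93 under 3 alternatives, against 6.63. Overlap by at least 50% of the shorter peak, by centres within 500 bp or with gaps of at most 1000 bp gave 1 shared site each. The short CRE motif was found in 7 genes in place of 0 for the full palindrome. No paired analysis was possible because the lists carry no replicate numbers, and no replicate could be left out. The longest Hoxa run had 4 peaks in place of 11 with gaps of at most 5000 bp. The percentile of the shared MEF peak was 47.0 in place of 84.2 in the shortened MEF list. The shorter gaps, this percentile and the MEF density in the shortened list were added after the data had been seen. Unknown read depth limits every comparison between the lists.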
